A study of Mus musculus with 9 samples.

Results

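Mapk6 and Ptprg are 2 of the 69 genes whose 5′ leaders were probed in these samples. All entries of the deposited table that belonged to their RefSeq transcripts were taken, which gave 5 of 161 amplicons, 3 from Mapk6 and 2 from Ptprg, and 483 tested A and C nucleotides of 16178. All samples were total RNA of E14TG2a mouse embryonic stem cells (E14), in 3 groups of 3 replicates. Untreated cells, which skipped the depletion medium and its inhibitors, were buffered with 250 mM bicine and exposed at 37 °C to 1.6% dimethyl sulfate (DMS), which was left on for 6 min. ATP-depleted cells received the same DMS treatment after 10 min without glucose in 10 mM 2-deoxyglucose and 10 mM sodium azide, and both inhibitors were kept in the later media. The third group was RNA refolded in vitro. The sources used here do not give its folding buffer or DMS treatment. The labels describe the samples of each condition as independent. No sample labelled as free of DMS was used here, so the background at each nucleotide is unknown.

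DMS methylates the base-pairing face of A and C where it is free, and reverse transcription across the adduct leaves a mutation in the cDNA. A high value is therefore read here as an A or C that was open to the reagent, and a low value as one that was paired or covered. Background and coverage are unknown, so this reading was not tested at single sites. The values are counts per 1000000 counts within one amplicon and sample (CPM). They describe how signal was distributed along an amplicon, and say nothing of how reactive one amplicon was against another. Within an amplicon the values also compete: a rise at strong sites lowers the share left to the others.

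MAPK6, also called ERK3, is an atypical member of the MAP kinase family. Its protein is short-lived in dividing cells, and its best known partner is the kinase MK5. PTPRG, protein tyrosine phosphatase receptor type gamma, spans the plasma membrane. It carries a carbonic anhydrase-like domain outside the cell, through which it binds contactins, and tyrosine phosphatase domains inside. In general, a 5′ leader can tune how often ribosomes reach the coding sequence, through stable folds and through upstream AUG triplets that open short reading frames of their own.

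Mapk6 lies on chromosome 9 from 75386782 to 75410016 and Ptprg on chromosome 14 from 11553440 to 12242041 (GRCm38.p6, the RefSeq annotation). Positions below count from the first base of the RefSeq transcript, as the table gives them. Bases 20 to 50 of Mapk6 matched the minus strand at chr9:75409967-75409997, which places position 1 at the annotated start of the gene. The start of neither coding sequence was used here, so it was not determined whether all positions are untranslated. The Mapk6 amplicons were read from 20 to 232 (upstream), from 234 to 429 (middle) and from 417 to 615 (downstream), and the Ptprg amplicons from 224 to 436 (upstream) and from 486 to 691 (downstream).

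The results turn on a stretch of Mapk6 between positions 140 and 224, on single sites further along that transcript, and on the GC-rich amplicon of Ptprg. The AUG at position 171 of Mapk6 is shown first because the strongest fall in this gene lay inside the reading frame it opens, and the capitals mark the triplet:

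Mapk6 AUG at 171: gagtaagATGgacggtag

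The next sequences are the predicted Mapk6 hairpin from G192 to C219, without its outermost pairs, with the changed nucleotides C204, A208 and C219 in capitals, and both arms of the helix predicted upstream of it, with C154 in the first arm and A171, C176, C182 and A187 in the second in capitals:

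Mapk6 G192 to C219: gattgtggtgagCtggAgccacctgatC

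Mapk6 140 to 162: agtcggagaagtccCgttgtatc

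Mapk6 170 to 189: gAtggaCggtagCtttgAct

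The following sites are shown because they rose in refolded RNA or held the most signal of their amplicon, with the nucleotide itself in capitals:

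Mapk6 A89: gcacagccggAgacctgagcc

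Mapk6 A224: ctgatcactaAgaagagac

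Mapk6 A288: caaggaagcgAggaagcagag

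Mapk6 A315: agtgcttcccAgcgccttagg

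Mapk6 A602: gtctgaggggAactcagcggg

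For Ptprg, the 2 sites below changed in opposite directions in the GC-rich amplicon, and the run of 7 C lies in its other amplicon:

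Ptprg C365: acccgcggtcCctgcctgctc

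Ptprg C389: gccccgggctCtgccgccgtg

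Ptprg 657 to 663: aagtttaCCCCCCCtgccttt

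The recovered counts behind each amplicon and sample set the precision. The middle Mapk6 amplicon was deep in every sample, with 262019 to 481773 counts. The downstream Mapk6 amplicon held 6117 counts in untreated replicate 3 and 22203 to 119989 in the other samples. The upstream Mapk6 amplicon was shallow, with 1896, 2639 and 7841 counts in vitro and 4479 to 18996 in cells. The downstream Ptprg amplicon held 59361 to 216441 counts in 8 samples and only 1058 in ATP-depleted replicate 3. The upstream Ptprg amplicon was also shallow in that replicate, at 1236 counts, and held 2067 to 62675 elsewhere. GC content was 60.6%, 53.1% and 40.2% along the 3 Mapk6 amplicons, and 75.1% and 59.2% in the Ptprg ones, against a median of 57.9% over all amplicons. These counts come from amplified cDNA without molecular identifiers, so counting error is only part of their error.

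Some libraries stood apart from their replicates. The Pearson correlation of log2 values over the A and C of the middle Mapk6 amplicon was 0.990 to 0.995 between replicates of every group. In the upstream Mapk6 amplicon, untreated replicate 1 correlated with the other untreated samples at a mean of 0.714, although their correlation with each other was 0.924. At C20 it read 10187 CPM, on 47 counts, against 1979 and 653 CPM in the other 2 replicates, and at A171 it read 9329 CPM against 22986 and 29233 CPM. ATP-depleted replicate 3 correlated with its replicates at a mean of 0.674 in the downstream Ptprg amplicon and 0.520 in the upstream Ptprg amplicon, with no counts at 5 of 89 and 6 of 108 A and C, respectively. In the upstream Ptprg amplicon even the other pairs were loose, at 0.704 to 0.807 in untreated cells and 0.596 to 0.690 in vitro. Over the whole series the median of this mean correlation was 0.888, and 0.638 in libraries under 5000 counts.

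**Figure D1:**
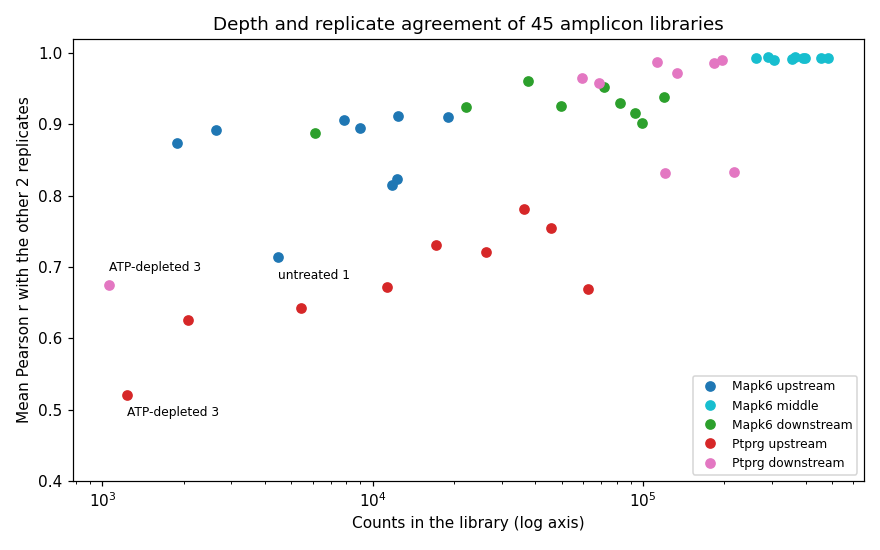
Counts in each of 45 amplicon libraries (x axis, log scale) against the mean Pearson r of the library with the other 2 replicates of its group (y axis), coloured by amplicon. The 9 libraries of the middle Mapk6 amplicon sit near 0.99, while ATP-depleted replicate 3 sits at 0.674 and 0.520 in the Ptprg amplicons and untreated replicate 1 at 0.714 in the upstream Mapk6 amplicon.

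The first comparison asks whether loss of ATP, on which RNA helicases and translation depend, changed which nucleotides were open. No A or C of either gene was called in ATP-depleted against untreated cells, 0 of 483 at a limma adjusted p under 0.05, and the share called over all 16178 was 0%. At an unadjusted p under 0.05 there were 20 such nucleotides, against 3.93% of all nucleotides. The replicates of the 2 groups did not overlap at 20 that were higher and 53 that were lower after depletion, beside 4.45% and 7.92% of all nucleotides. The median change was -0.03 in Mapk6 and -0.08 in Ptprg on the scale of log2(CPM + 3196.78), the scale of every log2 change below. The added constant dampens changes at weak nucleotides.

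Some sites differed without being called, and they are given as values only. In Mapk6, A128 read 3968, 3272 and 5446 CPM in untreated cells and 9482, 5524 and 7344 CPM after ATP depletion, so the groups did not overlap and the log2 difference was 0.51 (SE 0.30, limma adjusted p = 1.00). C204 of the same amplicon read 8042, 7554 and 8321 CPM in untreated cells and 943, 4477 and 5145 CPM after depletion, with a log2 difference of -0.80 (SE 0.26). C219 read 21125, 29045 and 31760 CPM in untreated cells and 12033, 23276 and 13706 CPM after depletion. The groups overlapped at C219, and its log2 difference was -0.67 (SE 0.23).

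In Ptprg the extreme values came from the shallow library. C409 read 39966 CPM in ATP-depleted replicate 3, on 45 counts, against 2370 and 2930 CPM in the other 2 replicates and 1014 to 1800 CPM in untreated cells. Its log2 difference fell from 1.29 to 0.32 without that replicate. A619 had no counts there and 14644 and 16345 CPM in the others, against 16645 to 18443 CPM in untreated cells. Its log2 difference was -0.95 with the replicate and -0.16 without it. No 25-nt window, amplicon mean or Gini coefficient (a measure of unevenness) of the 5 amplicons was called by limma in this comparison, and the share over the whole table was 0% for each. At an unadjusted p under 0.05 there were 4 of 41 windows, 2 of 5 means and 1 of 5 Gini coefficients, beside 5.41%, 6.21% and 8.07% over the whole table.

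The second comparison sets RNA refolded in vitro against untreated cells. In Mapk6 24 nucleotides rose and 34 fell in vitro, 58 of 286 or 20.3% (limma, adjusted p under 0.05), where 16.3% of all nucleotides were called, 8.08% higher and 8.18% lower. In Ptprg 9 rose and 2 fell, 11 of 197 or 5.58%. By base, 17 of 141 A of Mapk6 rose and 9 fell, and 7 of 145 C rose and 25 fell. In Ptprg 1 of 44 A rose and 1 fell, and 8 of 153 C rose and 1 fell. Over all genes 9.96% of A rose and 4.05% fell, and 6.7% of C rose and 11.2% fell. The difference between the bases, and that between the genes, was not tested.

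The counts depended on the samples used. Without untreated replicate 2 or 3, 29 and 33 nucleotides of Mapk6 were called, and 3 and 3 of Ptprg. The Ptprg count was 5 without ATP-depleted replicate 1 or 2, which enter only the shared estimate of spread, and 7 and 6 without refolded replicate 1 or 2. Without untreated replicate 1 the counts were 43 and 8, without ATP-depleted replicate 3 they were 44 and 8, and without both libraries 23 and 5. When each amplicon was divided by its mean, 15 rose and 45 fell in Mapk6, and 4 rose and 5 fell in Ptprg. That scaling moved the median of all nucleotides by -0.07.

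By amplicon, the middle Mapk6 amplicon had 15 calls higher and 13 lower among 102 nucleotides, the upstream Mapk6 amplicon had 7 and 12 among 102, and the downstream Mapk6 amplicon had 2 and 9 among 82. The upstream Ptprg amplicon had 7 and 1 among 108, and the downstream Ptprg amplicon had 2 and 1 among 89. The amplicon with most calls, at 27.5%, was also the deepest. The upstream Mapk6 amplicon, with 1896 to 18996 counts, had 18.6% called. The downstream Ptprg amplicon, with 1058 counts in ATP-depleted replicate 3 and 59361 to 216441 elsewhere, had 3.37% called. Whether depth bore on the calls was not tested.

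C219 of Mapk6 showed the strongest fall of either gene. It was the second strongest of 102 A and C in untreated cells and ranked 96 of 102 in refolded RNA, where it read 1315, 187 and 756 CPM on 2, 0 and 5 counts. The value of 187 CPM comes from a count of 0 and the constant in the deposited values. Every refolded sample lay below every sample from cells. The site changed by -2.94 on the log2 scale (SE 0.23, limma adjusted p = 0.000466), and -3.10 without untreated replicate 1 (limma adjusted p = 0.00196). The ratio of the untreated to the refolded mean was 36.3 on the CPM scale, resting on 7 counts in vitro.

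Other falls in this amplicon included C176, C182 and C204, upstream of it. C176 read 6541, 15068 and 14595 CPM in untreated cells and 2366, 935 and 1169 CPM in vitro, a change of -1.66 on the log2 scale (SE 0.29, limma adjusted p = 0.00765), and -1.96 without untreated replicate 1 (0.00603). C182 read 8042, 6827 and 8670 CPM in untreated cells and 1315, 561 and 1169 CPM in vitro, a change of -1.39 on the log2 scale (SE 0.13, limma adjusted p = 0.000677). C204, with 8042, 7554 and 8321 CPM against 2892, 935 and 1306 CPM, changed by -1.21 (SE 0.26, limma adjusted p = 0.0190), and without 1 of the untreated replicates or refolded replicate 2 the adjusted p was 0.0521 to 0.0596. At none of these sites did the untreated and refolded samples overlap. The ATP-depleted samples read 4381 to 9504 CPM at C176 and 4270 to 5930 CPM at C182, with means between those of the other groups.

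Of the 7 rises in the same amplicon, all but those at C39 and C102 were at A. A89 read 10831, 11352 and 12242 CPM in untreated cells, 12144, 11599 and 12214 CPM after ATP depletion and 31813, 35717 and 32377 CPM in vitro. Its log2 change against untreated cells was 1.31 (SE 0.09, limma adjusted p = 0.000240), with both in-cell groups close together and all refolded samples above them. A224 read 18551, 17896 and 20084 CPM in untreated cells, 28889, 23590 and 25016 CPM after depletion and 44433, 48433 and 45713 CPM in vitro, where it was the strongest nucleotide of the amplicon. The 3 groups were separate at A224, and its log2 change in vitro against untreated cells was 1.16 (SE 0.10, limma adjusted p = 0.000646). A187 rose from 8900, 16684 and 14856 CPM to 31287, 36091 and 31002 CPM, a change of 1.14 on the log2 scale (SE 0.21, limma adjusted p = 0.00925), and 0.92 without untreated replicate 1 (0.0184). C102 was an exception among the C, with 3539, 6181 and 5184 CPM in untreated cells and 9202, 13651 and 10517 CPM in vitro (log2 change 0.81, SE 0.16, limma adjusted p = 0.0138). Without untreated replicate 1, A89, A224, C102 and C182 changed by 1.28, 1.16, 0.68 and -1.38, and all stayed called.

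**Figure D2:**
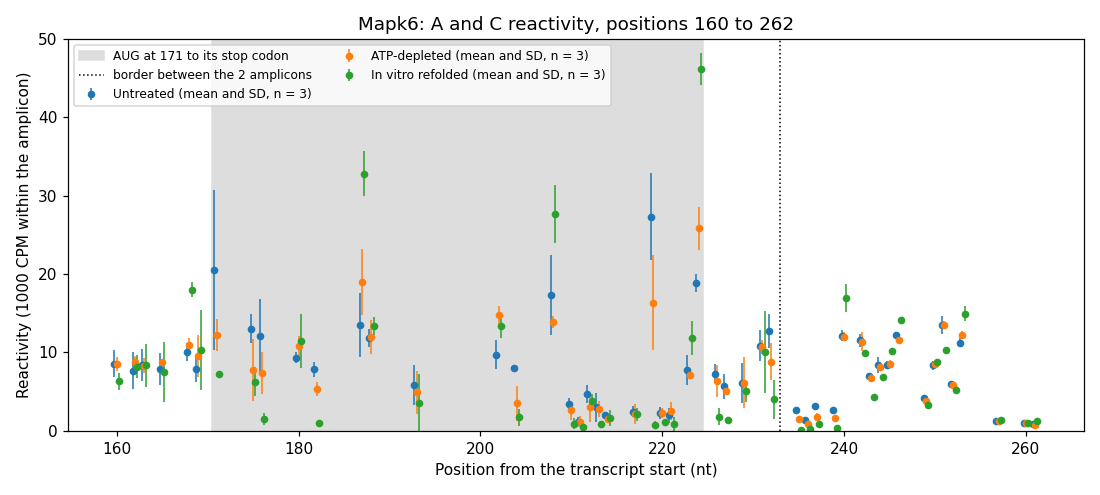
Mean reactivity with SD (n = 3) of A and C in Mapk6 from position 160 to 262 in untreated, ATP-depleted and refolded samples, with position from the transcript start on the x axis and 1000 CPM within the amplicon on the y axis. The shaded frame from the AUG at 171 to its stop holds C219, where the refolded mean is 753 CPM against 27310 CPM in untreated cells, and ends in A224, the strongest refolded nucleotide.

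Read against the sequence, C176, C182, A187, C204, C219 and A224 lie in a short reading frame, while A89 and C102 lie upstream of it. The AUG at 171 has A 3 bases before it and G just after it, a favourable setting for initiation in general, and its frame runs for 17 codons to a stop that begins at 222. C219 is the first base of its last sense codon and A224 the last base of its stop. A171, the A of the AUG, was the third strongest A or C of the amplicon in untreated cells, at 9329, 22986 and 29233 CPM. It read 9926, 13693 and 13078 CPM after ATP depletion and 7625, 7293 and 6668 CPM in vitro. The untreated and refolded samples did not overlap, and the log2 change was -1.08 (SE 0.31, limma adjusted p = 0.0488). Without untreated replicate 1 the change was -1.49 and the limma adjusted p was 0.00406, while without any other single replicate it was 0.0669 to 0.145.

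A fold predicted from sequence alone by RNAfold put most of these bases into pairs. It joined G192 to C219 near the foot of a hairpin whose outermost pair was G190 with C221, and closed its loop, which held A208, with C204 and G209. Upstream it paired C176 with G155, C182 with G147, A187 with T142 and A171 with T161. The predicted probability of being unpaired was 0.00 at C219, 0.12 at C176, 0.00 at C182 and 0.05 at C204, all of which fell in vitro. It was 1.00 at A208, which rose from 14691, 14099 and 23221 CPM to 31287, 27863 and 23853 CPM in vitro (log2 change 0.61, SE 0.17, limma adjusted p = 0.0485, and 0.134 without untreated replicate 1 or 0.0763 without ATP-depleted replicate 3), 0.97 at A224 and 0.97 at A89. A187 went the other way, since it rose in vitro and its predicted probability of being unpaired was 0.22. C154, the strongest A or C of this amplicon in untreated cells at 23484, 34055 and 28274 CPM, was predicted to be paired in all but 0.07 of the ensemble. It read 29710, 30855 and 37326 CPM in vitro.

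**Figure D3:**
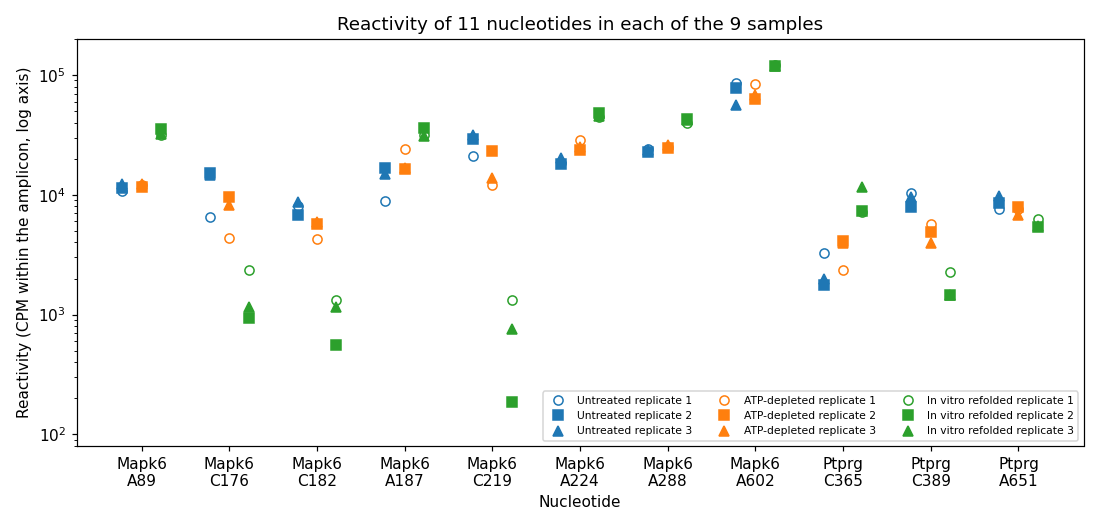
Reactivity (CPM within the amplicon, log axis) of 11 nucleotides of Mapk6 and Ptprg in each of the 9 samples, coloured by group and marked by replicate. C219 falls to 187 to 1315 CPM in refolded RNA, A89 and A288 are higher in vitro than in every sample from cells, and C389 of Ptprg is lowest in vitro with the ATP-depleted samples between the other groups.

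The middle Mapk6 amplicon was read most precisely, and its strongest nucleotides gained signal in vitro. A288 led the amplicon in all 3 groups, with 24049, 22957 and 23775 CPM in untreated cells, 25232, 24780 and 25799 CPM after ATP depletion and 40054, 43031 and 42325 CPM in refolded RNA. Every ATP-depleted sample lay above every untreated one, a difference that was not called. In vitro it changed by 0.75 on the log2 scale against untreated cells (SE 0.08, limma adjusted p = 0.00140). A315 was second in all 3 groups and went from 21053, 21483 and 22260 CPM to 37188, 37086 and 38227 CPM, a change of 0.72 (SE 0.08, limma adjusted p = 0.00162). RNAfold paired A315 with T330 and left A288 unpaired. Both sites stayed called in each of the 25 alternatives run. A326, the first base of an AUG whose frame runs for 14 codons, read 12566, 12245 and 13557 CPM in untreated cells and 18111, 16848 and 18660 CPM in vitro (log2 change 0.40, limma adjusted p = 0.0214). The adjusted p of A326 was 0.0584 without untreated replicate 1, 0.0751 without untreated replicate 2 and 0.0508 without refolded replicate 3. C270, the third strongest, read 15980 to 16545 CPM in untreated cells and 18382 to 20509 CPM in vitro and was not called (limma adjusted p = 0.186).

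In the downstream Mapk6 amplicon, the most AU-rich of the 5 amplicons, a single nucleotide held far more signal than any other. A602 read 85463, 77732 and 56204 CPM in untreated cells, 83267, 63216 and 68429 CPM after ATP depletion and 120933, 118196 and 118530 CPM in vitro. All refolded samples lay above all samples from cells, and the log2 change against untreated cells was 0.70 (SE 0.16, limma adjusted p = 0.0245). RNAfold paired A602 with T518 and gave it a probability of 0.02 of being unpaired. The call was lost without any 1 of the refolded replicates, at adjusted p from 0.0509 to 0.0571, and without untreated replicate 2 or 3 (0.0560 and 0.0550). A437 and A457, next in strength at 16217 to 20650 and 15420 to 20067 CPM in untreated cells, read 17872 to 21343 and 17371 to 20426 CPM in vitro and were not called.

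The last 13 positions of the middle Mapk6 amplicon were read again in the downstream Mapk6 amplicon. C420 fell by 0.35 in the first amplicon (limma adjusted p = 0.0313) and by 0.34 in the second (limma adjusted p = 0.171), where the same size was not called. C422 changed by -0.31 in the first (limma adjusted p = 0.0465) and -0.08 in the second (0.820), on 2887 against 4358 CPM and 2086 against 2300 CPM. The A of the AUG at 423 did not pass the test in either. Further AUG triplets began at 29, 137, 354, 375, 462, 505, 537 and 567 of Mapk6 and at 680 of Ptprg, and none of their A nucleotides was called against untreated cells. The triplets at 29 and 137 shared a stop at 167 after 46 and 10 codons. Position 233 was not read, so frames across it could not be followed.

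In the upstream Ptprg amplicon, C made up 93 of 108 tested nucleotides, and most called changes were rises. C365 read 3295, 1768 and 1985 CPM in untreated cells, 2356, 4144 and 3953 CPM after ATP depletion and 7135, 7342 and 11725 CPM in vitro. It changed by 1.09 on the log2 scale (SE 0.19, limma adjusted p = 0.00758), and it stayed called in all 23 alternatives run. C376 (8699, 27901 and 10744 CPM against 3796 to 4937 CPM), A272 (19841, 49046 and 15380 CPM against 7589 to 10433 CPM) and C337 (12022, 13803 and 9852 CPM against 3043 to 7800 CPM) also rose. Their limma adjusted p lay between 0.0373 and 0.0473, and refolded replicate 2, a library of 2067 counts, gave the highest value at each of them. Without ATP-depleted replicate 3 the adjusted p of C376 and A272 was 0.0581 and 0.0724, and without an untreated replicate it was 0.0771 to 0.108 and 0.0953 to 0.127. That of C337 was 0.141 and 0.129 without untreated replicate 2 or 3, 0.0688 without ATP-depleted replicate 1, and 0.0592 to 0.108 without a refolded replicate. RNAfold paired C376 with G254 and A272 with T304, and left C365 and C337 unpaired.

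C389 was the strongest fall of Ptprg. It read 10284, 7969 and 9573 CPM in untreated cells, 5653, 4872 and 3953 CPM after ATP depletion and 2248, 1468 and 1471 CPM in vitro, so the 3 groups were separate. The log2 change in vitro was -1.34 (SE 0.13, limma adjusted p = 0.000737), and in ATP-depleted cells -0.64, which was not called. The ATP-depleted value rests on 399, 140 and 4 counts and the refolded one on 11, 2 and 16. RNAfold gave C389 a probability of 0.83 of being unpaired. The strongest nucleotides of the amplicon, A232, A231 and A235, stand together in a purine stretch. A232 read 43503, 40944 and 48547 CPM in untreated cells and 12022, 71954 and 36512 CPM in vitro, a spread that covers the untreated values. None of the 3 was called.

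The downstream Ptprg amplicon had the fewest calls of the 5, at C491, C624 and A651. A614, its strongest nucleotide, read 36661, 31204 and 36393 CPM in untreated cells and 37947, 41628 and 47090 CPM in vitro, without overlap but with a limma adjusted p of 0.165. A651 fell from 7600, 8473 and 9800 CPM to 6249, 5416 and 5490 CPM, a change of -0.40 on the log2 scale (SE 0.10, limma adjusted p = 0.0344). Its adjusted p was 0.0520 to 0.0579 without 1 of the ATP-depleted replicates, and 0.0736 to 0.106 without refolded or untreated replicate 2 or 3. Within the run of 7 C from 657 to 663, the untreated means went from 7240 ± 351 CPM at the first C to 1461 ± 153 CPM at the third and 4727 ± 447 CPM at the last (SD, n = 3 each). No C of the run was called in vitro.

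Averages over 25-nt windows placed the changes along the transcripts. Against untreated cells 8 windows were called, 3 higher and 5 lower, where 19.7% of all 1332 windows were called, 9.16% higher and 10.5% lower. In the upstream Mapk6 amplicon the windows that start at 170, 195 and 220 fell by 0.50, 0.51 and 0.29 (limma adjusted p = 0.0167, 0.00278 and 0.0445). These are the windows over the frame of the AUG at 171 and the bases after it. The first changed by -0.62 without untreated replicate 1, and the last then had an adjusted p of 0.0718. The window that starts at 195 stayed called in all 21 alternatives run. Those that start at 170 and 220 stayed called in 18 of 22 and 10 of 21.

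In the deep amplicon of Mapk6, the windows 234 to 258 and 409 to 429 fell by 0.18 and 0.26 (limma adjusted p = 0.0170 and 0.00417), and 284 to 308 and 384 to 408 rose by 0.13 and 0.19 (0.0322 and 0.00933). The fall of 234 to 258 kept its call in 20 of 24 alternatives run and changed sign in 2. Its change ranged from -0.77 to 0.058, with a limma adjusted p up to 0.848. The adjusted p of 284 to 308 was 0.0897 without untreated replicate 1, and it kept its call in 11 of 23 alternatives run. The windows 384 to 408 and 409 to 429 kept theirs in 22 of 22 and 22 of 23. In Ptprg the window 324 to 348 rose by 0.38 (limma adjusted p = 0.0138). With each amplicon divided by its mean, the window counts were 1 higher and 13 lower. Under that scaling the Ptprg window rose by 0.21 with an adjusted p of 0.241, and 384 to 408 was the window that stayed higher. Without untreated replicate 2 or 3, 4 windows were called in each case.

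**Figure D4:**
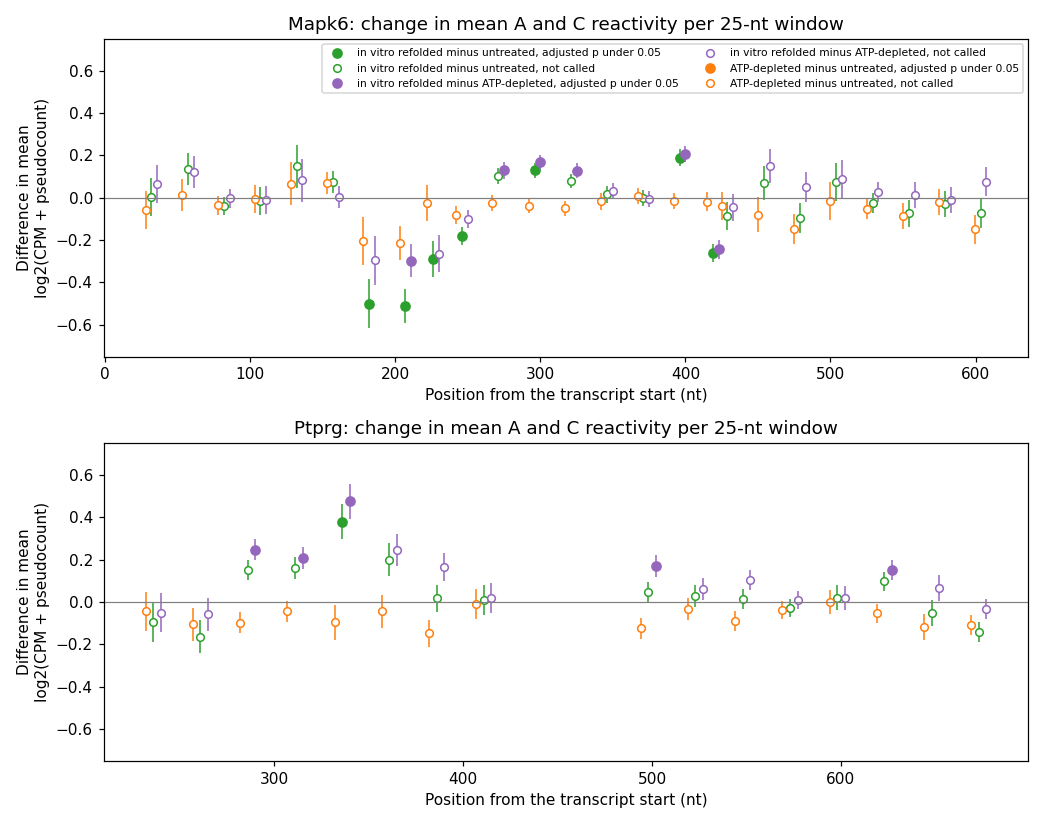
Change in mean log2(CPM + pseudocount) of A and C in 25-nt windows of Mapk6 (top) and Ptprg (bottom), against position from the transcript start, with the SE of the limma fit as bars. Filled points have an adjusted p under 0.05. Windows of Mapk6 from 170 to 232 fall by 0.29 to 0.51 in refolded RNA against untreated cells, Ptprg 324 to 348 rises by 0.38, and no ATP-depleted window is called.

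The Gini coefficient measures how unevenly signal is spread over the A and C of an amplicon, from 0 for an even profile upwards. It rose in vitro against untreated cells in 4 of the 5 amplicons (limma, adjusted p under 0.05), where 82% of all 161 amplicons were called and 80.1% were called higher. The upstream Mapk6 amplicon went from 0.383 ± 0.028 to 0.513 ± 0.016, the middle Mapk6 amplicon from 0.333 ± 0.0024 to 0.429 ± 0.0034, and the downstream Mapk6 amplicon from 0.429 ± 0.013 to 0.538 ± 0.013 (SD, n = 3 each). The downstream Ptprg amplicon rose from 0.382 ± 0.014 to 0.425 ± 0.0082, ranking 137 of 161 by the size of its rise, and was not called without untreated replicate 2 (limma adjusted p = 0.0616). The upstream Ptprg amplicon read 0.418, 0.422 and 0.401 in untreated cells and 0.450, 0.600 and 0.436 in refolded RNA, and its difference of 0.0813 was not called (limma adjusted p = 0.159). In all 5 amplicons every refolded sample lay above every untreated one, as in 75.2% of all amplicons. The median difference over all amplicons was 0.0923, and the 3 Mapk6 amplicons, at 0.130, 0.0963 and 0.109, lay above it. Without untreated replicate 1 the difference of the upstream Mapk6 amplicon was 0.118 (limma adjusted p = 0.00327). The refolded libraries of that amplicon held 1896, 2639 and 7841 counts, and whether depth bore on its Gini coefficient was not tested.

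**Figure D5:**
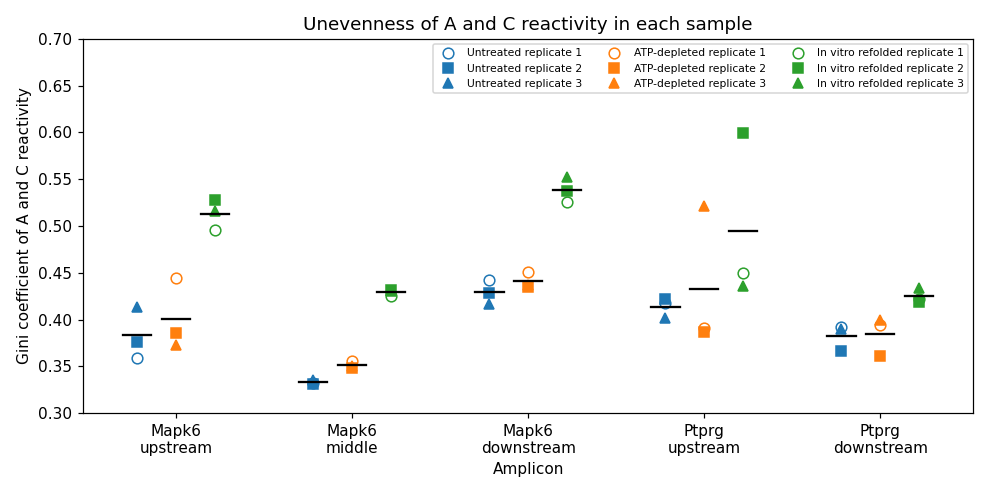
Gini coefficient of A and C reactivity (y axis, starting at 0.3) for the 5 amplicons in each of the 9 samples, coloured by group, with a bar at each group mean. Refolded samples lie above all in-cell samples in the 3 Mapk6 amplicons and in the downstream Ptprg amplicon, while ATP-depleted replicate 3 of the upstream Ptprg amplicon sits at 0.521.

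The share of signal by base was also computed. A took 42.7% ± 4.2 of the counts of the upstream Mapk6 amplicon in untreated cells and 51.8% ± 1.8 in vitro, and C took 33.6% ± 0.77 and 26.3% ± 1.4 (SD, n = 3 each). Without untreated replicate 1 the untreated means were 44.8% and 33.2%. In the middle Mapk6 amplicon A took 47.6% ± 1.9 and 52.3% ± 0.82. In the upstream Ptprg amplicon A took 23.2% ± 0.44 in untreated cells and 23.0% ± 1.7 in vitro. These shares were not tested, and that of A in Ptprg differed by less than the spread between replicates.

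Predicted pairing gave a further view of the 5 profiles. The mean log2 reactivity of predicted unpaired A and C exceeded that of paired ones in every amplicon and group. The difference in the upstream Mapk6 amplicon was 0.63 ± 0.09 in untreated cells, 0.81 ± 0.16 after ATP depletion and 1.09 ± 0.10 in vitro (SD, n = 3 each). It was also larger in refolded than in untreated samples, without overlap, in the middle Mapk6 amplicon (0.58 against 0.51), the downstream Mapk6 amplicon (0.29 against 0.18) and the upstream Ptprg amplicon (0.51 against 0.37). The downstream Ptprg amplicon read 0.69 against 0.71, with overlap. In the first 4 the exact two-sided permutation p was 0.10, the smallest that 3 samples against 3 allow. No test of this kind could therefore pass the threshold. These values took pairs from the minimum free energy fold. With a base pair probability under 0.5 as the rule for unpaired, the downstream Mapk6 amplicon lost its separation. Its refolded mean was then 0.36 against 0.25 untreated, with overlap and a permutation p of 0.3. The upstream and middle Mapk6 amplicons and the upstream Ptprg amplicon kept a p of 0.10 under that rule. Among calls in Mapk6, predicted unpaired nucleotides rose 18 times and fell 13 times of 128, and predicted paired ones rose 6 times and fell 21 times of 158. In Ptprg the unpaired rose 4 times and fell 1 time of 87, and the paired rose 5 times and fell 1 time of 110. Over all genes 9.2% of the unpaired rose and 5.72% fell, and 7.07% of the paired rose and 10.4% fell.

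The third comparison sets refolded RNA against ATP-depleted cells. It shares the refolded samples with the second, so the comparisons are not independent. In Mapk6 22 nucleotides rose and 17 fell, 39 of 286 or 13.6%, and in Ptprg 10 rose and 4 fell, 14 of 197 or 7.11%, where 14.9% of all nucleotides were called, 8.31% higher and 6.56% lower. Of these, 36 of 39 in Mapk6 and 10 of 14 in Ptprg were also called against untreated cells, each in the same direction. C219 changed by -2.27 (SE 0.23, limma adjusted p = 0.00106), A89 by 1.26 (0.000314), A224 by 0.77 (0.00299) and C182 by -1.01 (0.00238).

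Other sites were named in this comparison. A208 rose from 13031, 14583 and 13942 CPM after depletion to 31287, 27863 and 23853 CPM in vitro (log2 change 0.85, limma adjusted p = 0.0158), and A226 fell from 4048, 7776 and 7187 CPM to 2366, 561 and 2543 CPM (-0.93, 0.0243). Without ATP-depleted replicate 3 their adjusted p was 0.0530 and 0.0838, and without ATP-depleted replicate 2 it was 0.0530 and 0.0914. In Ptprg, C276 rose from 3997, 3312 and 3953 CPM to 12804, 15566 and 8515 CPM (log2 change 1.13, limma adjusted p = 0.0183, and 0.0526 to 0.0698 without 1 of the ATP-depleted replicates). C383 fell from 4846, 4560 and 7466 CPM to 684, 881 and 2006 CPM (-1.0, limma adjusted p = 0.00690), and its adjusted p was 0.0236 without ATP-depleted replicate 3. C350 and C408 also fell, by 0.89 and 0.91, and their adjusted p without it was 0.0780 and 0.0861.

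The counts of this comparison moved with single libraries. Without ATP-depleted replicate 1, 2 or 3 there were 24, 16 and 19 calls in Mapk6, and 3, 4 and 3 in Ptprg. With each amplicon divided by its mean, 13 rose and 27 fell in Mapk6, and 3 rose and 8 fell in Ptprg. Of the windows, 11 were called, 9 higher and 2 lower, where 22.1% of all windows were called, 13.8% higher and 8.26% lower. The strongest was Ptprg 324 to 348, which rose by 0.47 (limma adjusted p = 0.00429, and 0.00744 at 0.37 without ATP-depleted replicate 3). Its neighbours 274 to 298 and 299 to 323 rose by 0.25 and 0.21 (0.00739 and 0.0214, and 0.0263 and 0.0501 without ATP-depleted replicate 3), and 486 to 510 and 611 to 635 of the other amplicon by 0.17 and 0.15 (0.0399 and 0.0439). Both windows of the downstream Ptprg amplicon lost their call without ATP-depleted replicate 3 (0.106 and 0.117) and without untreated replicate 1 (0.0548 and 0.0615). They kept it in 8 of 22 and 4 of 23 alternatives run. In the upstream Ptprg amplicon, 274 to 298, 299 to 323 and 324 to 348 kept theirs in 21 of 22, 12 of 21 and 21 of 22. In Mapk6, 259 to 283, 284 to 308, 309 to 333 and 384 to 408 rose by 0.13, 0.17, 0.13 and 0.20, and the windows that start at 195 and 409 fell by 0.30 and 0.24. The adjusted p of 259 to 283 was 0.0608 without untreated replicate 1, and that of the window at 195 was 0.0768 without ATP-depleted replicate 3. Among the alternatives run, 259 to 283 kept its call in 11 of 24, 309 to 333 in 11 of 22 and the window at 195 in 15 of 21. The windows 284 to 308, 384 to 408 and that at 409 kept theirs in 22 of 23, 22 of 22 and 22 of 23. The count of windows was 5 without ATP-depleted replicate 2, 7 without replicate 3, and 6, 6 and 7 without refolded replicate 1, 2 or 3. With each amplicon divided by its mean it was 1 higher and 11 lower.

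The Gini coefficient rose against ATP-depleted cells in the same 4 amplicons (limma, adjusted p under 0.05), where 80.7% of all amplicons were called and 78.9% were called higher. The median difference over all amplicons was 0.0867. The rise was 0.112 in the upstream, 0.0782 in the middle and 0.0977 in the downstream Mapk6 amplicon, with the middle one below that median. It was 0.0402 in the downstream Ptprg amplicon, which was not called without ATP-depleted replicate 2 or refolded replicate 3 (limma adjusted p = 0.0643 and 0.0557). The upstream Ptprg amplicon differed by 0.0621 (limma adjusted p = 0.273), and by 0.106 (limma adjusted p = 0.0709) without ATP-depleted replicate 3.

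The mean log2 level over the A and C of an amplicon was called in 1 of the 5 against ATP-depleted cells, where 13% of all amplicons were called, 7.45% higher and 5.59% lower. The upstream Ptprg amplicon went from 13.04 ± 0.020 after depletion to 13.19 ± 0.024 in vitro (SD, n = 3 each), a rise of 0.15 (limma adjusted p = 0.00694). It was 0.13 (0.0111) without ATP-depleted replicate 3, 0.02 (0.877) over all 4 bases and -0.05 (0.429) with each amplicon divided by its mean. No mean was called by limma against untreated cells, where 8.7% of all amplicons were, 1.86% higher and 6.83% lower. At an unadjusted p under 0.05 there were 2 of 5, beside 22.4% of all amplicons. With each amplicon divided by its mean, 4 means were lower in either comparison. That scaling makes the linear mean of A and C equal in every sample, so these calls cannot show a change in level apart from unevenness.

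Other genes of phosphorylation signalling in the table were counted beside these. Of the list of kinases, phosphatases, receptors and partners, 4 more genes had amplicons: Acvr2a, an activin receptor, Dusp16, a phosphatase of MAP kinases, Ppp1r10, a regulator of protein phosphatase 1, and Ppp2r5e, a subunit of protein phosphatase 2A. Of their 741 nucleotides 29 rose and 33 fell against untreated cells, 8.37%. The Gini coefficient was called higher in vitro in 5 of their 7 amplicons, where 80.1% of all amplicons were called higher. All 7 differences were positive, from 0.0437 to 0.0933. Another 7 such genes were added after the table was seen (Hipk3, Nlk, Taok2, Tek, Ptp4a1, Ptp4a2 and Ppm1b), of whose 1639 nucleotides 124 rose and 130 fell, 15.5%, beside 16.3% of all nucleotides. Mapk6, at 20.3%, lay above all of these but Acvr2a (25.3%), and Ptprg, at 5.58%, lay above Dusp16 (5.24%) and Nlk (2.78%) only, as a description without a test. Against ATP-depleted cells Mapk6, at 13.6%, lay below Acvr2a (25.3%), Ptp4a1 (16.3%), Ptp4a2 (16.2%), Taok2 (14.4%) and Hipk3 (13.9%), and Ptprg, at 7.11%, lay above Ppp1r10 (6.58%), Dusp16 (4.19%), Nlk (4.17%) and Ppp2r5e (3.95%), where 14.9% of all nucleotides were called.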

How the data were processed

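The table was deposited by the authors as log2 values per nucleotide and sample. Per the submitters' processing notes, bcl2fastq, Bowtie2 and limma were used, with settings, mutation counter and build not given in the sources used here. Turned back from log2, each value was a whole count plus 0.5, scaled to 1000000 counts in its amplicon and sample, in 1449 of 1449 libraries (100% of values whole at a tolerance of 0.0001). These counts are taken as mutation counts; coverage is unknown. Samples held 5743965 to 12616275 counts.

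Values were turned back to CPM, and log2(CPM + 3196.78), the constant being 0.5 times the A and C median of 6393.56, was fitted in limma 3.58.1 (R 4.3.3) over all 9 samples and the whole table, with a mean per group and Benjamini-Hochberg adjustment. Windows of 25 nt needed 5 tested A or C and amplicons 10. Folds came from RNAfold 2.7.2 without lone pairs, on the stretch read. Fits were checked on simulated data. Sequences are the deposited bases, except the position check, which used the RefSeq promoter table.

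Genes, lists and naming rules were chosen with earlier results of these data known. In each gene and comparison, the nucleotides named were the 4 largest called rises and falls without overlap, or without any call the highest and lowest such change as values. Also named were C219 of Mapk6, the 3 strongest A or C per amplicon, called windows and AUG triplets; A326, the overlap and the C run were picked after their values were seen. Alternatives covered pseudocount, scale, scaling, filters, bases, ends, weights, a cap, sample sets, a replicate block and each replicate left out. A further gene of phosphorylation signalling is not reported here.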

Additional observations from a re-analysis of the deposited data

Results flagged for a closer look

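DMS reacts mainly with A and C at their pairing face, and the report's comparisons leave out G and U. Signal was nevertheless present there above the limit that a count of 0 allows, taken as 3 counts. In Mapk6, 79 of 168 G and 132 of 154 U nucleotides had over 3 counts in every sample. In Ptprg, 5 of 129 G and 44 of 93 U did, with the shallow ATP-depleted replicate 3 among the samples. U took 14.5% to 25.2% of the counts of Mapk6 per sample and 23.6% to 31.8% of those of Ptprg, and G took 5.0% to 6.28% and 5.57% to 8.67%. T518 of Ptprg, a U in the RNA, was its strongest, at 9481 ± 768 CPM in untreated cells, and T417 of Mapk6 read 13097 ± 3439 CPM (SD, n = 3 each). Whether this signal depends on DMS was not tested.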

How the results depend on the processing

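Of 39 called changes of named nucleotides in refolded RNA, 17 kept their direction and call in every alternative run. Among them were C219, A89, C182, A288 and A315 of Mapk6 and C389 of Ptprg in both comparisons. Where calls were lost, the cause was not tested. Called nucleotides in vitro against untreated cells (Mapk6 58, Ptprg 11) numbered 24 and 1 with A alone, 25 and 5 at or above the median mean, 23 and 5 without both untreated replicate 1 and ATP-depleted replicate 3 (chosen after seeing the data), and 29 and 2 with only the 6 samples compared; C alone gave 32 in Mapk6. Against ATP-depleted cells (39 and 14) they numbered 19 and 1, 22 and 5, and 16 and 3 under the first 3 of these, 21 in Mapk6 with C alone, 67 with precision weights, and 9 in Ptprg with 6 samples. Leaving out 1 replicate gave 29 to 45 and 3 to 9 against untreated cells, and 16 to 41 and 3 to 13 against ATP-depleted cells. Windows against untreated cells (8) numbered 3 with A alone, 4 with amplicons of 5000 counts or more, 4 at or above the median mean, 14 divided by amplicon mean, and 4 to 8 without 1 replicate; against ATP-depleted cells (11), 3 with A alone, 7 with C alone, 5 with deep amplicons, 5 with 6 samples, 5 without both libraries and 5 to 9 without 1 replicate. Gini calls (4) fell to 2 with deep amplicons, which leave out 3 of the 5, and ranged from 3 to 4 without 1 replicate. Amplicon means against untreated cells (0) were called in 1 with all 4 bases, 2 with C alone, 2 on the deposited log2 scale, 4 divided by amplicon mean, 3 at or above the median mean and 1 at pseudocount 0.1 times the median. Against ATP-depleted cells (1) they were called in 2 with A or C alone, 0 with all 4 bases or deep amplicons, and 4 divided by mean or at or above the median mean.

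Gini differences that were not called changed sign. For ATP-depleted against untreated cells they were -0.0200 (filter at the median mean) and ran from -0.0041 (without ATP-depleted replicate 1) to 0.0329 when 1 replicate was left out, in the upstream Mapk6 amplicon. In the downstream Mapk6 amplicon they were -0.0052 (all bases), -0.0107 (C alone) and -0.0030 (filter). In the upstream Ptprg amplicon they were -0.0080, -0.0076 and -0.0228 (without both libraries), and ran from -0.0248 (without ATP-depleted replicate 3) to 0.0425 without 1 replicate. In the downstream Ptprg amplicon they were -0.0021, -0.0035, -0.00045 without both libraries and -0.0060 to 0.0143 without 1 replicate, negative also without ATP-depleted replicate 1 (-0.0024) and 3 (-0.0051). In vitro against ATP-depleted cells, the upstream Ptprg amplicon read -0.0384 with A alone and -0.0242 with the filter.

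Replicate numbers were shared by the groups. Deviations of same-numbered samples correlated at -0.018 to 0.10 over A and C. ATP-depleted and untreated samples each correlated best with their own number, at 0.041, 0.10 and 0.031, against -0.054 to 0.00082 between different numbers. These values are small, and whether same-numbered samples of the groups were handled together was not tested. With the replicate block, 40 nucleotides of Mapk6 and 7 of Ptprg were called against untreated cells, and 33 and 12 against ATP-depleted cells. In the shallow libraries a few counts decide a value at weak nucleotides. Whether this bore on the number of calls there was not tested.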
